A study of Rattus norvegicus with 12 samples.

Results

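Glycolysis splits glucose into pyruvate and yields ATP in the cytosol, and glycogen is the glucose store that muscle draws on when it contracts. The report covers 30 named genes of these pathways, chosen by gene name from the count table: enzymes that break down and build glycogen, the steps of glycolysis, the lactate and glycerol phosphate side reactions, and the enzymes that set fructose bisphosphate. Of the 30 names, 29 were found, on 30 of the table's 30560 gene rows, because Aldoa stands on 2 rows. Pgk1, a phosphoglycerate kinase, matched no row by name and was not analysed here. All 30 rows passed the filter for low counts.

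The RNA came from the inner red gastrocnemius of 6 wild-type male Wistar Kyoto rats aged 9 weeks. The material under study was mitochondria, pulled down with antibodies from fresh muscle and cleaned with RNase A and with proteinase K (6 libraries, made from 10 ng of RNA each). The comparison was whole muscle of the same animals (the labels carry the same animal numbers), from a portion that was frozen and given no enzyme treatment (6 libraries, from 50 ng each). Both kinds of library were depleted of ribosomal RNA. The labels do not give the purity of the isolated mitochondria, and whole muscle holds vessels, nerve and connective tissue beside the fibres.

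The enzymes of glycolysis and glycogen metabolism are made from nuclear genes and work outside the mitochondrial matrix, in the cytosol, on glycogen particles and beside the sarcomere. Skeletal muscle uses its own forms of many of them, such as the phosphorylase Pygm, the phosphofructokinase Pfkm, the mutase Pgam2 and the enolase Eno3, while liver, brain, blood and many other tissues use forms from related genes. Fast fibres are known for a high capacity for glycolysis and slow fibres for Ldhb, the heart-type lactate dehydrogenase subunit. Hexokinases Hk1 and Hk2 are known to attach to the outer face of the mitochondrial outer membrane.

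Mitochondria libraries held 720111 to 1785865 gene counts and muscle libraries 24309444 to 32055355. The mitochondrial genome took 12.9% to 51.5% of them in mitochondria and 26.4% to 35.9% in muscle. Levels are therefore given as nuclear CPM, counts of a gene divided by the summed counts of nuclear genes and scaled as CPM. A single gene of the set had 0 to 153 counts in a mitochondria library and 19 to 166751 in a muscle library, and the counting error of mitochondria values is the larger. All 7 muscle fibre markers found (Acta1, Ckm, Myh2, Myh4, Myh7, Tnnt3 and Mylpf) had counts in both groups, with a summed level of 692 to 1179 nuclear CPM in mitochondria and 138268 to 165742 in muscle. Markers of other cells went both ways in edgeR's test with TMM. The 4 fat cell markers, all called higher, summed to 128 to 150.4 nuclear CPM in mitochondria and 0.192 to 5.37 in muscle. The 5 leukocyte markers, of which 3 were higher and 1 lower, summed to 237 to 363 in mitochondria and 52.4 to 94.0 in muscle. All 5 endothelium markers were lower, with sums of 353 to 403 in mitochondria and 395 to 766 in muscle, as were all 5 fibroblast markers, with 482 to 708 in mitochondria and 3222 to 11952 in muscle. Of the 4 smooth muscle markers 3 were lower and 1 higher, with 247 to 310.4 in mitochondria and 282 to 459.6 in muscle. The 4 red cell markers were 2 higher and 2 lower, and of the 4 Schwann cell markers 1 was higher and 1 lower. No marker row was at 0 throughout a group, and the part of such cells in the results was not tested. Muscle replicate 6 stood apart in the 5 fibroblast markers, at 11952 nuclear CPM, against at most 4276 in the other muscle libraries. Without it, 25 rows of the set were lower and 4 higher, because the Aldoa row ENSRNOG00000052802 no longer passed the filter for low counts and was not tested.

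The first comparison asked which of these mRNAs were higher or lower in mitochondria than in whole muscle. The set as a whole made up 0.174% ± 0.00661 of nuclear counts in mitochondria and 2.62% ± 0.456 in muscle (SD, n = 6 each). Pygm, Eno3, Gapdh and Pgam2 fell furthest. Pfkl, Pfkp, Hk1 and a copy of Aldoa (ENSRNOG00000067655) rose. In tissue and organelle extracts such as these, fewer cells or organelles of a type and less RNA in each cannot be told apart.

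Over 24679 genes, a quasi-likelihood test in edgeR, scaled by TMM, called 26 of the 30 rows lower and 4 higher, with a median log2 fold change of -4.47. Over all genes tested, 30.3% were called lower and 63% higher, with a median of 2.51. A log2 fold change of 0 thus lies well below the middle gene, and each of the 30 rows, the 4 that rose included, lay below that median. Many genes passed the filter only through the mitochondria libraries. In the muscle libraries alone 12609 genes were tested, and the median nuclear gene of the group test had 1.16 nuclear CPM in muscle. A set abundant in muscle falls below such a median largely by this choice, so its place there is a description. With total counts as the only scaling, 23 rows were lower and 5 higher (9.03% and 84.3% of all genes), and the median was -2.36, against 4.61 over all genes. All 30 again lay below the median of all genes. Relative to mitochondrial genome counts, 18 rows were lower, 4 higher and 8 passed in neither direction (4.4% and 80.7% of all genes lower and higher). DESeq2 and the fit with the animal as a block also gave 26 lower and 4 higher, where all genes had 26.4% lower and 66.4% higher in DESeq2 and 30.1% lower and 62.9% higher with the block. The distance between the median of the set and that of all genes was -6.98 with TMM and -6.96 with total counts. By nuclear CPM the groups did not overlap for 25 of the 30 rows, 21 of them lower and 4 higher in mitochondria. Of all genes tested, 7.34% were lower without overlap and 81.7% higher.

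**Figure D1:**
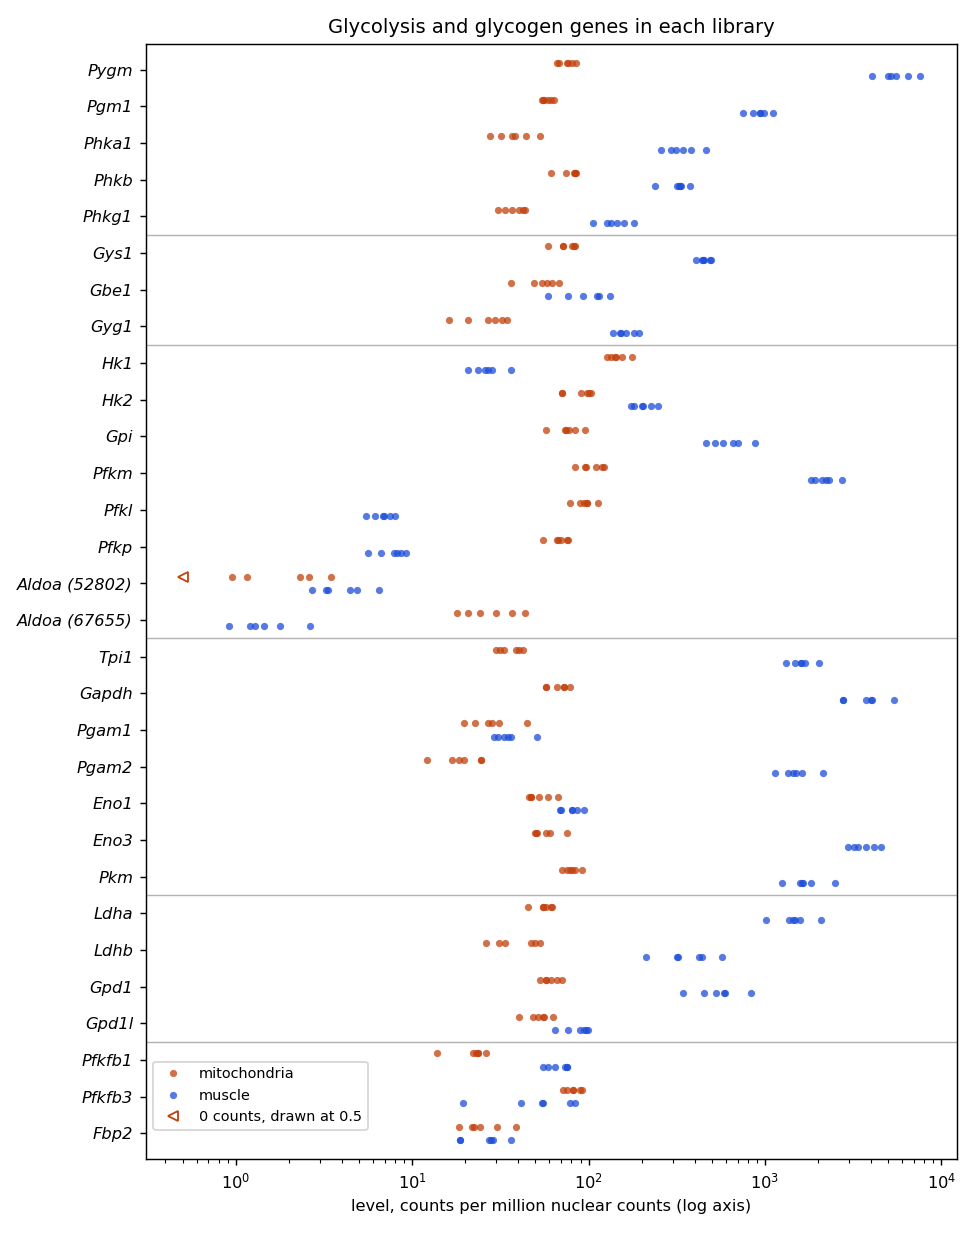
Level of each gene in each library, in nuclear CPM on a log axis, with the 6 mitochondria libraries above the 6 muscle libraries in each row and lines between the role groups. The mitochondria points of most genes lie between 10 and 200, while the muscle points reach from under 10 for Pfkl and Pfkp to 7539.6 for Pygm.

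**Figure D2:**
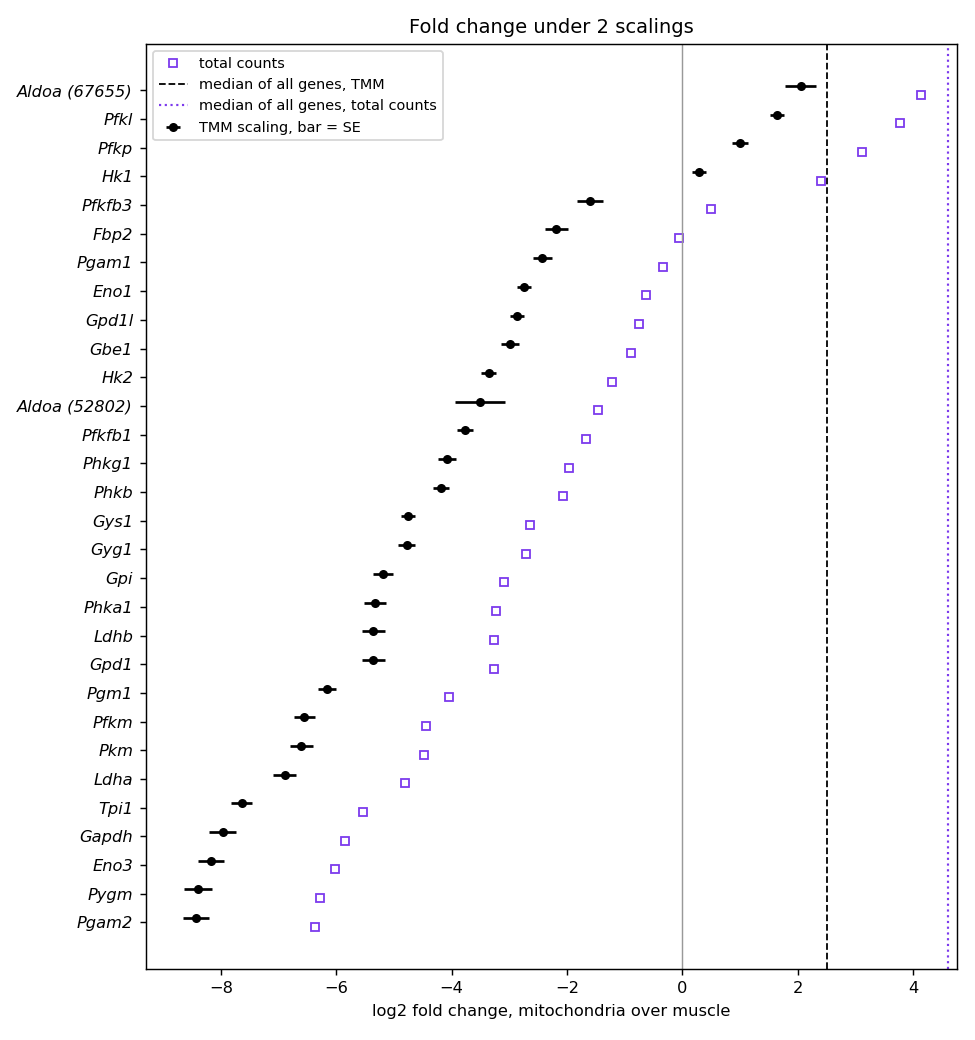
Log2 fold change of mitochondria over muscle for each gene under TMM scaling (filled, bar = SE) and with total counts (open squares), with the median of all genes under each scaling as vertical lines. All genes of the set lie left of the median that belongs to their scaling, and Pfkfb3 lies on opposite sides of 0 under the 2 scalings.

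The 5 genes of glycogen breakdown all fell. Pygm, the muscle phosphorylase that frees glucose 1-phosphate from glycogen, had 66.2 to 84.3 nuclear CPM in mitochondria (median 75.7), against 4057 to 7539.6 in muscle (median 5355). Its mean level in muscle was 74.9 times that in mitochondria, and its highest mitochondria library lay far below its lowest muscle library. The edgeR log2 fold change was -8.39 ± 0.24 (SE, adjusted p = 1.19e-23) and -6.28 with total counts. Pgm1, the phosphoglucomutase that passes the sugar on to glycolysis, had 54.2 to 63.5 nuclear CPM in mitochondria (median 57.4), against 753 to 1107 in muscle (median 936). The 3 subunits in the set of phosphorylase kinase, the enzyme that switches phosphorylase on, fell less. Among them, Phka1, the muscle form of the alpha subunit, had 27.5 to 53.1 nuclear CPM in mitochondria (median 37.6), against 258 to 461 in muscle (median 329). For Phkg1, the catalytic gamma subunit of muscle, libraries held 30.5 to 43.8 nuclear CPM in mitochondria (median 38.5), against 106 to 181 in muscle (median 139.6). Phkb, the beta subunit shared by muscle and liver, ranged over 61.0 to 84.3 nuclear CPM in mitochondria (median 83.6), against 237 to 374 in muscle (median 328). None of the 5 overlapped between the groups, and the edgeR log2 fold changes of the last 4 were -6.16 ± 0.16, -5.33 ± 0.19, -4.08 ± 0.16 and -4.18 ± 0.14 (SE), with adjusted p of at most 1.79e-20.

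The 3 genes of glycogen synthesis fell too. Gys1, the glycogen synthase of muscle, had 58.7 to 83.4 nuclear CPM in mitochondria (median 76.1), against 406 to 496 in muscle (median 449). Gyg1, the glycogenin that starts a new particle, had 16.1 to 34.6 nuclear CPM in mitochondria (median 28.3), against 138 to 193 in muscle (median 157). Both were clear of overlap, with edgeR log2 fold changes of -4.76 ± 0.13 and -4.78 ± 0.15 (SE; adjusted p = 2.15e-24 and 8.71e-23). For the branching enzyme Gbe1 the libraries held 36.2 to 68.0 nuclear CPM in mitochondria (median 56.0), against 58.9 to 132 in muscle (median 102). Here the groups overlapped, through the lowest muscle library. Gbe1 fell by 2.98 on the log2 scale in edgeR (SE 0.16, adjusted p = 2.85e-17), by 0.88 with total counts, and it no longer passed relative to mitochondrial genome counts (-0.56, adjusted p = 0.290).

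The upper stage of glycolysis, which spends ATP to prime the sugar, was the group in which genes moved both ways, with 4 of 8 rows lower and 4 higher. Pfkm, the muscle subunit of phosphofructokinase, the committed step, had 83.4 to 122 nuclear CPM in mitochondria (median 103), against 1825 to 2718 in muscle (median 2159.7). Pfkl, the liver-type subunit, went the other way, with 78.4 to 113 nuclear CPM in mitochondria (median 95.7), against 5.47 to 8.02 in muscle (median 6.86). Pfkp, the platelet-type subunit, had 55.2 to 76.3 nuclear CPM in mitochondria (median 68.5), against 5.63 to 9.23 in muscle (median 8.06). All 3 were clear of overlap, with Pfkm low and Pfkl and Pfkp high in every mitochondria library. The edgeR log2 fold changes were -6.55 ± 0.19, 1.64 ± 0.12 and 0.99 ± 0.14 (SE; adjusted p = 8.69e-24, 1.13e-13 and 8.87e-08), and -4.44, 3.77 and 3.11 with total counts. Relative to the median of all genes, Pfkl stood at -0.87 and Pfkp at -1.52 on the log2 scale.

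The hexokinases, which trap glucose in the cell, split in the same manner. Hk2, the insulin-responsive form of muscle, had 70.4 to 103 nuclear CPM in mitochondria (median 94.4), against 175 to 248 in muscle (median 201). Hk1, the form of brain and red cells, had 128 to 177 nuclear CPM in mitochondria (median 142), against 20.8 to 36.5 in muscle (median 26.4). Neither overlapped between the groups. Hk2 fell by 3.36 on the log2 scale (SE 0.13, edgeR adjusted p = 6.38e-21), and by 0.79 without passing relative to mitochondrial genome counts (adjusted p = 0.125). Hk1 rose by 0.29 ± 0.11 (SE, edgeR adjusted p = 0.0194) and by 2.41 with total counts. With TMM, its call was lost without mitochondria replicate 1 (0.24, adjusted p = 0.0581), without mitochondria replicate 5 (0.20, adjusted p = 0.106) and with no filter for low counts (0.22, adjusted p = 0.0655).

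Gpi, the isomerase that turns glucose 6-phosphate into fructose 6-phosphate, fell, with 57.5 to 95.2 nuclear CPM in mitochondria (median 76.1), against 466 to 879 in muscle (median 616) (log2 fold change -5.19 ± 0.18, SE, edgeR adjusted p = 4.16e-22). Aldoa is the aldolase that muscle uses to split fructose bisphosphate, and its 2 rows were both low in muscle. ENSRNOG00000052802 had 0 to 3.48 nuclear CPM in mitochondria (median 1.73), against 2.71 to 6.47 in muscle (median 3.88). ENSRNOG00000067655 had 18 to 43.5 nuclear CPM in mitochondria (median 27.1), against 0.912 to 2.63 in muscle (median 1.37). The first row fell, with overlapping groups, and the second rose, with groups apart, by edgeR log2 fold changes of -3.51 ± 0.44 and 2.05 ± 0.27 (SE; adjusted p = 8.84e-09 and 2.15e-08). The first row passed the filter for low counts through the muscle libraries and the second through the mitochondria libraries. Each was higher in the group that let it pass, so these directions are given as a description. The first did not pass relative to mitochondrial genome counts (-1.40, adjusted p = 0.111). The values of these rows are uncertain as a measure of Aldoa, because the counting of reads that match several copies is a step not given in the sources used here.

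In the lower stage of glycolysis, which returns ATP and ends in pyruvate, all 7 rows fell, and 6 of them did so without overlap. Gapdh, the dehydrogenase that loads phosphate onto the triose, had 57.6 to 78.4 nuclear CPM in mitochondria (median 69.3), against 2767 to 5381 in muscle (median 3864). Eno3, the muscle enolase, had 49.6 to 75 nuclear CPM in mitochondria (median 54.1), against 2939.7 to 4569.7 in muscle (median 3557). Pkm, the pyruvate kinase gene whose muscle and general splice forms share 1 row, had 70.5 to 91.8 nuclear CPM in mitochondria (median 79.6), against 1242 to 2500.0 in muscle (median 1631). Every muscle library held over 10 times the level of any mitochondria library for each of these 3. Tpi1, which interconverts the 2 trioses, had 30 to 42.7 nuclear CPM in mitochondria (median 36.0), against 1319 to 2021 in muscle (median 1592). Pgam2, the muscle phosphoglycerate mutase, had 12.2 to 24.7 nuclear CPM in mitochondria (median 19), against 1132 to 2145 in muscle (median 1471). At a mean ratio of 79.0 muscle over mitochondria, Pgam2 showed the largest fall of the set by fold of mean nuclear CPM, and each mitochondria library held 7 to 26 of its counts.

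The edgeR log2 fold changes were -8.44 ± 0.23 for Pgam2, -8.17 ± 0.22 for Eno3, -7.97 ± 0.23 for Gapdh, -7.64 ± 0.19 for Tpi1 and -6.60 ± 0.20 for Pkm (SE), with adjusted p of at most 3.51e-23. The forms of other tissues moved less. Eno1, the enolase found in most tissues, had 46.1 to 67.2 nuclear CPM in mitochondria (median 49.8), against 68.5 to 93.8 in muscle (median 80.9). Its groups were close but did not overlap. Pgam1, the mutase of brain and most other tissues, had 19.6 to 44.5 nuclear CPM in mitochondria (median 27.7), against 28.9 to 51.2 in muscle (median 34.0), with groups that overlapped. Eno1 fell by 2.75 (SE 0.12, edgeR adjusted p = 4.15e-19) and by 0.63 with total counts, but by 0.18 without passing relative to mitochondrial genome counts (adjusted p = 0.736). Pgam1 fell by 2.43 with TMM (SE 0.16, edgeR adjusted p = 8.36e-15) and did not pass with total counts (-0.33, adjusted p = 0.114).

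The 4 genes of the side reactions fell without overlap. Ldha, the lactate dehydrogenase subunit of fast muscle, had 45.3 to 62.3 nuclear CPM in mitochondria (median 56.4), against 1017 to 2085 in muscle (median 1463). Ldhb, the subunit of heart and slow fibres, had 26.1 to 53.1 nuclear CPM in mitochondria (median 40.2), against 211 to 570.5 in muscle (median 370.5). Muscle libraries were well above mitochondria libraries for both subunits. Gpd1, which makes glycerol 3-phosphate and passes reducing power towards mitochondria in the glycerol phosphate shuttle, had 53.1 to 70.4 nuclear CPM in mitochondria (median 59.4), against 344 to 828 in muscle (median 556). Its relative Gpd1l had 40.1 to 62.5 nuclear CPM in mitochondria (median 53.6), against 64.7 to 99.8 in muscle (median 91.9), with the 2 groups nearly touching. The edgeR log2 fold changes were -6.89 ± 0.20, -5.36 ± 0.20, -5.36 ± 0.19 and -2.86 ± 0.12 in this order (SE), with adjusted p of at most 1.47e-19. Gpd1l did not pass relative to mitochondrial genome counts (-0.39, adjusted p = 0.465).

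The 3 genes that control the fructose bisphosphate step fell with TMM. For 2 of them, Pfkfb3 and Fbp2, that fall did not hold with total counts or relative to mitochondrial genome counts. Pfkfb1, a form of the enzyme that makes and breaks fructose 2,6-bisphosphate in liver and muscle, had 13.8 to 26.1 nuclear CPM in mitochondria (median 23.3), against 54.9 to 75.6 in muscle (median 69.0). It fell by 3.77 (SE 0.14, edgeR adjusted p = 6.13e-21) and by 1.67 with total counts. Pfkfb3, an inducible form of the same enzyme, had 72.0 to 91.6 nuclear CPM in mitochondria (median 81.7), against 19.5 to 84.2 in muscle (median 54.8). It fell by 1.60 with TMM (SE 0.22, edgeR adjusted p = 8.23e-08) but rose by 0.50 with total counts (adjusted p = 0.0197). Fbp2, the muscle fructose bisphosphatase that works against phosphofructokinase, had 18.5 to 38.8 nuclear CPM in mitochondria (median 23.4), against 18.7 to 36.4 in muscle (median 27.7). Mitochondria and muscle libraries of Fbp2 covered nearly the same range. Its log2 fold change was -2.19 ± 0.20 with TMM (SE, edgeR adjusted p = 1.49e-11) and -0.06 with total counts (adjusted p = 0.791).

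Muscle isoforms were then set against the others. The 12 rows of muscle isoforms (Pygm, Phka1, Phkg1, Gys1, Hk2, Pfkm, both Aldoa rows, Pgam2, Eno3, Ldha and Fbp2) made up 0.0609% ± 0.00358 of nuclear counts in mitochondria and 1.57% ± 0.276 in muscle (SD, n = 6 each). The 8 other isoforms (Hk1, Pfkl, Pfkp, Pgam1, Eno1, Ldhb, Gpd1l and Pfkfb3) made up 0.0566% ± 0.00238 in mitochondria and 0.0680% ± 0.0124 in muscle. Of the muscle isoforms 11 rows fell and 1 rose, with a median log2 fold change of -5.04. Among the others 5 fell and 3 rose, with a median of -2.02 (0.08 with total counts, where 3 fell and 4 rose). The 10 rows of genes with a single or shared form all fell, with a median of -5.28. Of all genes tested, 30.3% fell and 63% rose with TMM, and 9.03% fell and 84.3% rose with total counts.

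A comparison within pairs of related genes does not depend on library size. In each of 11 pairs, the first gene's share of the pair's counts was lower in mitochondria, in 6 of 6 animals, and in 9 pairs the groups did not overlap. Pygm held 33.9% to 51.1% in mitochondria, against 99.7% to 99.9% in muscle, of the counts it shared with the brain-type phosphorylase Pygb. Pfkm held 47.1% to 55.6% in mitochondria, against 99.6% to 99.8% in muscle, when set beside Pfkl. The share of Pgam2 in its pair with Pgam1 was 35.0% to 48.5% in mitochondria, against 95.7% to 98.6% in muscle. In whole muscle the muscle form thus held nearly all counts of these 3 pairs, and in no mitochondria library did it hold over 55.6%. For Eno3 beside Eno1 the share was 46.2% to 56.1% in mitochondria, against 97.3% to 98.3% in muscle. Hk2 took 28.5% to 44.7% in mitochondria, against 86.7% to 90.7% in muscle, of the hexokinase counts. In the pair Phkg1 and Phkg2, the muscle and the liver form of the kinase's catalytic subunit, Phkg1 took 49.1% to 62.3% in mitochondria, against 87.8% to 93.8% in muscle.

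The differences of the mean shares, mitochondria minus muscle, were -59.4 points for Pygm, -57.1 for Pgam2, -50.6 for Hk2, -47.3 and -39.3 for Pfkm beside Pfkl and Pfkp, -46.0 for Eno3, -35.5 for Pfkfb1 beside Pfkfb3, -35.1 for Phkg1 and -31.6 for Gpd1 beside Gpd1l. For each of these 9 the two-sided exact permutation test over libraries gave p = 0.0021645, the smallest it can give, and 0.00265 after Benjamini-Hochberg adjustment over the 11 pairs. The pairs were chosen with earlier results of these data known, and in each the first gene had the larger mean share in muscle. A share already near its ceiling can hardly rise, so the p-values of the pairs are given as a description. In the 2 pairs with overlap, Ldha held 52.7% to 68.8% in mitochondria, against 64.1% to 90.8% in muscle, beside Ldhb, and the summed Aldoa rows held 30.8% to 61.7% in mitochondria, against 55.1% to 86.6% in muscle, beside Aldoc. Their differences were -20.0 and -28.9 points (exact permutation p = 0.00649 and 0.00433). With only the Aldoa row that has most counts over all libraries, ENSRNOG00000052802, in place of the sum of both, the Aldoa difference was -64.8 points (exact permutation p = 0.0021645). That row had 8 counts in mitochondria and 487 in muscle, and the row left out had 143 and 178. The larger difference thus follows from the choice of row and adds nothing to the result of the summed rows. Pfkm stands in 2 pairs, so those are not independent. Shares of counts also depend on transcript length. Which transcripts, or which parts of a gene, gave the reads in each group was not tested.

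**Figure D3:**
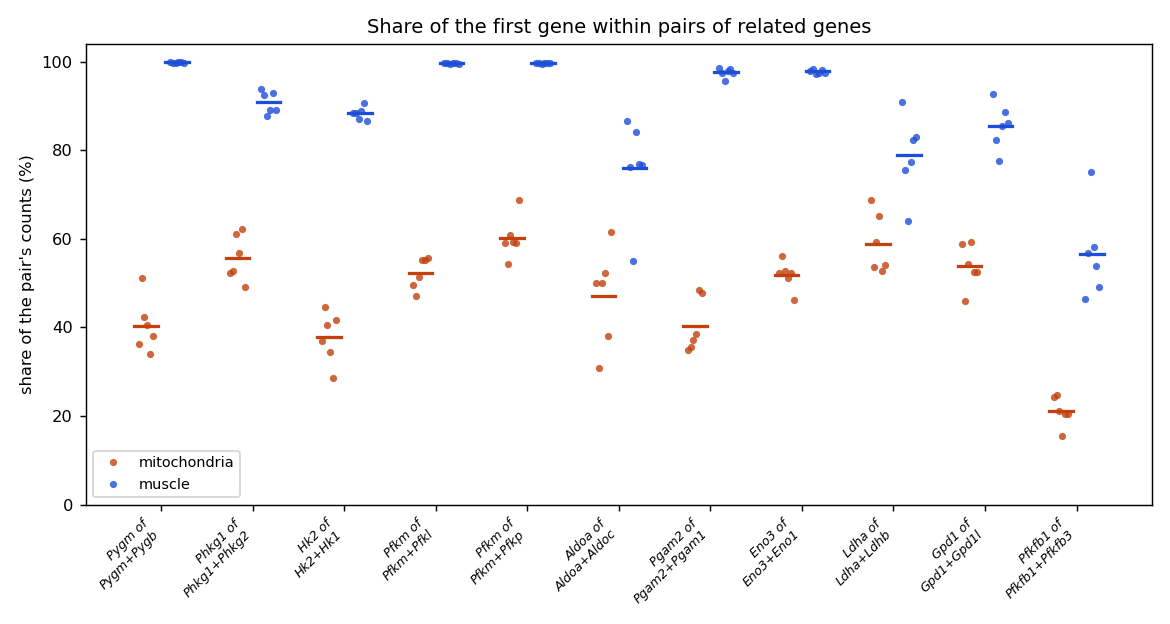
Share of the first gene in the summed counts of each pair, in percent, for 6 mitochondria libraries (left) and 6 muscle libraries (right) of each pair, with the mean as a bar. Shares in muscle lie near 100% for Pygm and Pfkm, and the mitochondria shares of most pairs lie between 30% and 70%.

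The start regions of 2 such pairs are shown because the members of each pair differ in the letters searched: the E-box CAGCTG, a form of the site bound by MyoD and its relatives, and the GC box GGGCGG, common at genes active in most tissues. Sequences are from RefSeq on the build GRCr8 and run 5′ to 3′ from 250 bases before to 50 bases after a listed start. Capitals mark matches to the 2 motifs, with the GC box read on both strands.
Pgam2 (chr14:84897825-84898124, - strand): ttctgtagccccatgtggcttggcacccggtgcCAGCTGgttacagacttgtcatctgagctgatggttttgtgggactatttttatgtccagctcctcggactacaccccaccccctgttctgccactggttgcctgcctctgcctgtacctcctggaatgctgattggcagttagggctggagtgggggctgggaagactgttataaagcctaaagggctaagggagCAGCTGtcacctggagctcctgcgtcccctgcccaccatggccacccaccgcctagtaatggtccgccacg
Pgam1 (chr1:250672902-250673201, + strand): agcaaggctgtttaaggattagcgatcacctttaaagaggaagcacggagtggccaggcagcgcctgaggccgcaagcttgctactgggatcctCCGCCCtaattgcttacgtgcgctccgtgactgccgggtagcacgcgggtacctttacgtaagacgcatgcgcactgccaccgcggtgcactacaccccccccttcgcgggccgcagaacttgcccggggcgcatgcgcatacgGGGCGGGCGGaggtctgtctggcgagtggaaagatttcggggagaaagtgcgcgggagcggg
Eno3 (chr10:55868936-55869235, + strand): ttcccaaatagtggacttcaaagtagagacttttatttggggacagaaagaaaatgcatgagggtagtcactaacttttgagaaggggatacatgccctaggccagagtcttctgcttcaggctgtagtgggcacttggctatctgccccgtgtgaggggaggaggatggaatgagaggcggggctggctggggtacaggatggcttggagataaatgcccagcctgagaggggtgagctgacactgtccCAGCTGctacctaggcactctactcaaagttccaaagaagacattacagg
Eno1 (chr5:166002617-166002916, + strand): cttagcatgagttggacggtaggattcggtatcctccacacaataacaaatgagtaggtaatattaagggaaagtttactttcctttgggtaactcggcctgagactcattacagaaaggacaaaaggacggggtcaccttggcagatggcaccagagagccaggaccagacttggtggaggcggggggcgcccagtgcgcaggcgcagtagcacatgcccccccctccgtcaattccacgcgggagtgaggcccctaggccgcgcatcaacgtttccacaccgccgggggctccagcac
Eno1 (chr5:166003111-166003410, + strand): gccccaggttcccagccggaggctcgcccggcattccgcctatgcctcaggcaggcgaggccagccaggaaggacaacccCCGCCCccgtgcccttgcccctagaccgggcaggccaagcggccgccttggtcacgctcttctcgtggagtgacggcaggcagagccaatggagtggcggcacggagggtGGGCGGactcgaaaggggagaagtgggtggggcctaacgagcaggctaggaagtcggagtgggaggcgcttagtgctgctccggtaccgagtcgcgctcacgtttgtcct

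The Pgam2 window holds 2 CAGCTG and no GGGCGG, and the Pgam1 window 3 GGGCGG, of which 2 overlap, and no CAGCTG. The Eno3 window holds 1 CAGCTG and no GGGCGG, while the 2 Eno1 starts hold 0 and 2 GGGCGG and no CAGCTG. Start windows were found for 26 genes of the set. CAGCTG occurred at 6 of 10 genes with a muscle isoform (Pygm, Pgam2, Eno3, Hk2, Gys1 and 1 start of Aldoa), at 0 of 7 other isoforms and at 1 of 9 single or shared forms (Gpi). GGGCGG occurred at 3 of 10 muscle isoforms, 7 of 7 others and 7 of 9 single or shared forms. A gene with several starts counts if any of them matches. Of all 33469 windows in the table, 15.1% hold CAGCTG and 33.1% GGGCGG. These are shares of single windows and not of genes, so the counts per gene above are not measured alike. A match describes letters and not binding, and these genes were not chosen independently of their muscle use.

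Across the set, the large range of levels seen in muscle was narrow in mitochondria. Mean nuclear CPM of the 30 rows ran from 1.75 to 146 in mitochondria, with a median of 56.8. In muscle it ran from 1.54 to 5618, with a median of 262. The medians over all 24654 nuclear genes tested were 29.9 in mitochondria and 1.16 in muscle. Across the 30 rows, mean levels in mitochondria and muscle had a Spearman correlation of 0.233, against 0.574 across all nuclear genes tested. These are descriptions across genes, which share libraries, and not tests, and the levels are not divided by transcript length.

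The mitochondria libraries also differed little from each other in this set once scaled to nuclear counts. The chi-square of a gene's counts against the nuclear totals, divided by its degrees of freedom, is 1 where libraries differ only by counting. Its median over the 30 rows was 0.997 in mitochondria, with a range from 0.215 for Pgm1 to 3.01 for an Aldoa row, and 144 in muscle, from 2.25 for Pfkl to 5568 for Pygm. The ratio grows with depth, which is far higher in muscle. The medians over all nuclear genes tested with a count in the group were 1.11 in mitochondria and 3.57 in muscle.

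**Figure D4:**
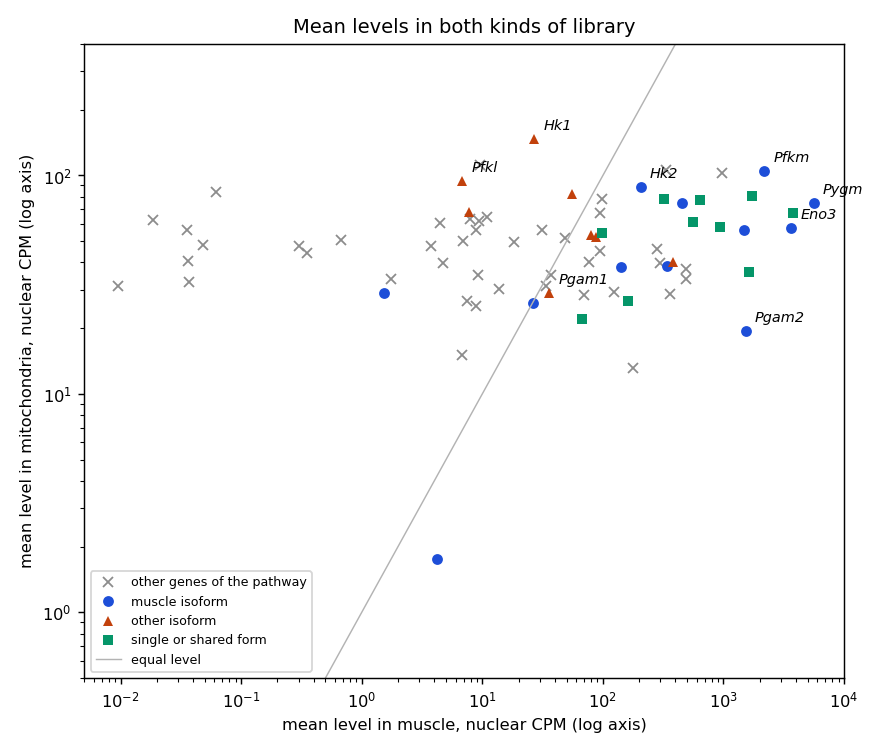
Mean level in mitochondria (vertical) against mean level in muscle (horizontal), in nuclear CPM on log axes, for the 30 rows by isoform class and for other genes of the pathway with a count in muscle (crosses; Pgk2, with none, is not drawn). The points form a nearly flat band between about 10 and 150 nuclear CPM in mitochondria, apart from 1 Aldoa row at 1.75, while their muscle levels spread over the whole width.

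Other genes of the pathways, from lists of 48 names, showed both sides of this band. Of their 45 rows, all tested, 22 fell and 21 rose, with a median log2 fold change of -0.33 with TMM. With total counts 14 fell and 28 rose (median 1.75). All genes tested had 30.3% lower and 63% higher with TMM, and 9.03% lower and 84.3% higher with total counts. Ppp1r3a and Ugp2, which are abundant in muscle, fell. Ppp1r3a, which ties protein phosphatase 1 to glycogen in muscle, had 33.6 ± 4.81 nuclear CPM in mitochondria and 491 ± 52.3 in muscle, and Ugp2, which makes UDP-glucose, had 39.6 ± 7.42 nuclear CPM in mitochondria and 299 ± 38.4 in muscle (SD, n = 6 each). The edgeR log2 fold changes were -6.02 ± 0.14 and -5.06 ± 0.13 (SE; adjusted p = 1.18e-25 and 1.55e-24). Of the 16 rows of other glycogen genes 10 fell and 5 rose with TMM, while with total counts 6 fell and 9 rose.

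Among transporters 7 of 9 fell with TMM, where 30.3% of all genes tested did. With total counts 6 fell and 3 rose, where 9.03% of all genes fell and 84.3% rose. Slc2a12 was the one that turned, from -1.29 with TMM to 0.82 with total counts. Slc2a4, the insulin-regulated glucose transporter GLUT4, had 37.1 ± 5.37 nuclear CPM in mitochondria and 493 ± 59.8 in muscle. Mpc1 and Mpc2, which form the carrier that takes pyruvate into mitochondria, fell with log2 fold changes of -5.79 ± 0.14 and -5.98 ± 0.16 (SE; edgeR adjusted p = 3.68e-25 and 1.49e-24). Slc16a3, a lactate exporter of fast fibres, had 106 ± 12.7 nuclear CPM in mitochondria and 332 ± 45.6 in muscle. The 2 that rose with TMM were Slc2a1 and Slc2a3, glucose transporters of many non-muscle cells, by 0.94 ± 0.18 and 0.57 ± 0.17 (SE, edgeR adjusted p = 2.03e-05 and 0.00203).

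Some forms of the enzymes were nearly absent from whole muscle. Of the 45 rows, 11 had a mean below 1 nuclear CPM in muscle, and their means in mitochondria ran from 24.1 to 84.2. Pgk2, the phosphoglycerate kinase of sperm, had 120 counts in mitochondria and 0 in muscle, at least 931-fold higher by nuclear CPM with 3 counts in all muscle libraries together taken as the floor. The liver glycogen synthase Gys2 had 244 counts in mitochondria and 5 in muscle. Fbp1, the liver fructose bisphosphatase, had 162 in mitochondria and 4 in muscle, and Pck1, a gluconeogenic enzyme of liver and kidney, had 231 in mitochondria and 35 in muscle. These rows passed the filter through the mitochondria libraries, so their higher level there follows from the choice and is given as a description.

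The remaining partners of the pairs lay between these ends. Pygb rose by 1.39 ± 0.14, the liver phosphorylase Pygl by 1.62 ± 0.16 and the brain aldolase Aldoc by 2.10 ± 0.24 on the log2 scale (SE; edgeR adjusted p = 7.23e-11, 8.74e-11 and 1.45e-09). Phkg2 fell by 1.03 with TMM (edgeR adjusted p = 4.11e-08) but rose by 1.08 with total counts. Bpgm, which makes the 2,3-bisphosphoglycerate of red cells, had 28.4 ± 5.93 nuclear CPM in mitochondria and 69.4 ± 7.77 in muscle and fell by 3.45 (edgeR adjusted p = 4.47e-20). Adpgk, a sugar kinase that uses ADP, had 34.9 ± 3.55 nuclear CPM in mitochondria and 9.17 ± 1.11 in muscle and did not pass with TMM (-0.23 ± 0.14, SE, edgeR adjusted p = 0.125), while it was higher with total counts (1.87). Minpp1, an inositol polyphosphate phosphatase, fell by 0.99 with TMM (edgeR adjusted p = 2.11e-05) and rose by 1.08 with total counts.

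Gpd2, the mitochondrial partner of Gpd1 in the glycerol phosphate shuttle, had 67.6 ± 13.2 nuclear CPM in mitochondria and 94.1 ± 18 in muscle and fell by 2.64 with TMM (edgeR adjusted p = 2.93e-16) and by 0.54 with total counts. Ldhd, the mitochondrial D-lactate dehydrogenase, had 51.8 ± 6.77 nuclear CPM in mitochondria and 48.9 ± 4.02 in muscle, and Tigar, a fructose bisphosphatase, 35.0 ± 10.1 nuclear CPM in mitochondria and 37.4 ± 3.47 in muscle. With TMM, Ldhd fell by 2.05 and Tigar fell by 2.28 (edgeR adjusted p = 3.15e-17 and 5.47e-15), and they did not pass with total counts (0.04 and -0.16).

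The muscle libraries differed among animals, and the next question was whether the genes of the set varied with Myh4, the myosin heavy chain of the fastest, most glycolytic fibres. Myh4 ran from 33472 nuclear CPM in replicate 3 to 74870.1 in replicate 1. Myh7, the slow myosin, ran the other way, from 23328 in replicate 3 to 7642 in replicate 1. The slopes were fitted on Myh4 as CPM of all counts, mitochondrial genome included. That genome's share was 26.4% in replicate 1 and 35.5% in replicate 3, so the fitted variable also carries this share. Phka1 and Phkg1 rose with Myh4, by 0.69 ± 0.11 and 0.64 ± 0.11 on the log2 scale per doubling of Myh4 (SE, edgeR slope test in 6 libraries, adjusted p = 0.0366 and 0.0388). These were the 2 genes of 30 that passed, where 0.286% of 12609 genes rose with Myh4 and 0.127% fell. Phka1 had 461 nuclear CPM in replicate 1 and 258 in replicate 3, which were its highest and lowest libraries.

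The slopes had a median of 0.49 over the 30 rows and -0.00225 over all genes, with 21 above 0. Slopes above 0 were 11 of 12 for muscle isoforms, 8 of 10 for single or shared forms and 2 of 8 for other isoforms. The medians were 0.64, 0.48 and -0.18. At an unadjusted p under 0.05 stood 21 of the 30 and 11% of all genes. These 21 are not the same as those above 0, since Gbe1, Ldhb, Hk1 and Pgam1 are among them with slopes below 0. Hk1 had -0.36 ± 0.13 and Pgam1 -0.35 ± 0.15 (SE; edgeR adjusted p = 0.319 and 0.416). Of the slopes above 0, 19 missed the adjusted threshold. The largest of all was that of Pfkfb3, at 0.97 ± 0.35, and the Aldoa row ENSRNOG00000052802 had 0.78 ± 0.27 (SE; edgeR adjusted p = 0.324 and 0.274). Others were 0.67 ± 0.18 for Pygm, 0.67 ± 0.14 for Pgam2, 0.70 ± 0.15 for Pkm, 0.79 ± 0.17 for Gpd1 and 0.76 ± 0.15 for Fbp2 (SE; edgeR adjusted p = 0.145, 0.0792, 0.0782, 0.0792 and 0.0559). The 3 genes of glycogen synthesis, Ldhb and Hk2 had slopes near or below 0. They were 0.03 ± 0.13 for Gys1, -0.06 ± 0.15 for Gyg1, -0.59 ± 0.18 for Gbe1, -0.66 ± 0.22 for Ldhb and -0.12 ± 0.15 for Hk2, none of which passed (edgeR adjusted p = 0.960, 0.933, 0.207, 0.256 and 0.838). Ldhb had 570.5 nuclear CPM in replicate 3 and 211 in replicate 1, the reverse of Ldha, with 1017 and 2085.

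The number of genes that passed depended on single libraries and on the tool. It was 0 without muscle replicate 1, 3 or 5, 1 without replicate 6, where Fbp2 passed and Phka1 and Phkg1 did not, and 5 without replicate 2, where Pkm, Gpd1 and Fbp2 joined Phka1 and Phkg1. DESeq2 called 13 of the 30 (1.28% of all genes rose with Myh4 and 0.983% fell in DESeq2). Without any single library, the slope of Phka1 stayed between 0.66 and 0.74 and that of Phkg1 between 0.62 and 0.68. Fibroblast markers were highest in replicate 6, which has a middle level of Myh4.

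**Figure D5:**
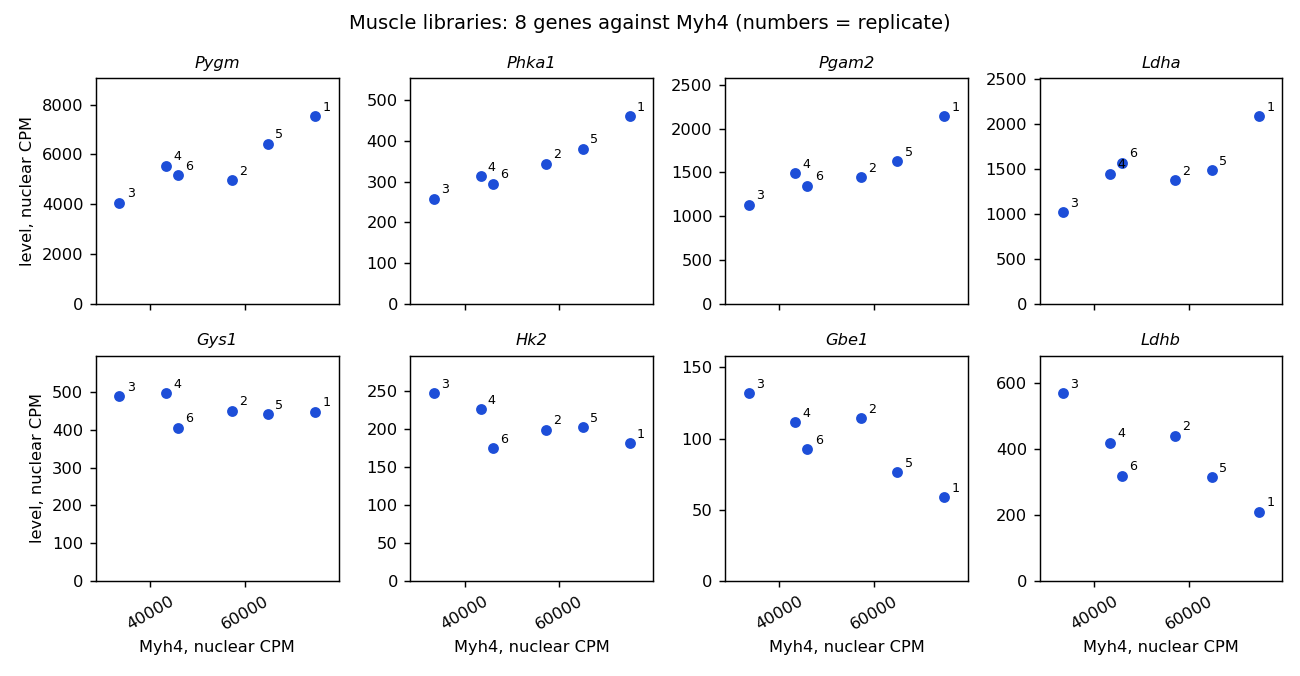
Level of 8 genes against the level of Myh4 in the 6 muscle libraries, both in nuclear CPM, with the replicate number beside each point. Pygm, Phka1, Pgam2 and Ldha are highest in replicate 1, which has the most Myh4, and lowest in replicate 3, which has the least, and Gbe1 and Ldhb are the reverse.

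In mitochondria, the levels of the set were compared with the share of a library's counts held by the mitochondrial genome. No slope passed edgeR's test among the 29 rows with enough counts, 2 had an unadjusted p under 0.05 (4.71% of all genes did), and DESeq2 called 0 (0.00586% of all genes rose in DESeq2). Of 16875 nuclear genes, 0.0296% passed with a slope above 0 and 0.00593% below. The slopes ran from -0.45 for Fbp2 to 0.33 for Gyg1 on the log2 scale per doubling of the share, with a median of -0.03. Pygm, at -0.03 ± 0.13 (SE), and Hk1, at 0.01 ± 0.09, stood close to 0. In simulated counts of 21039 genes in 6 mitochondria libraries, edgeR recovered 78% of slopes of 1.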

How the data were processed

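The authors deposited raw read counts per gene for 12 libraries, 6 of isolated mitochondria and 6 of whole muscle. Per the submitters' processing notes, the tools were FastQC 0.74, cutadapt 4.6, STAR 2.7.11a and HTSeq, on mRatBN7.2. Not given in the sources used here: strand setting, annotation release and the treatment of reads with several matches. Groups came from the titles. Members, isoform classes, pairs and lists were chosen with earlier results of these data known. The genes named in full are the members in the pairs, the 3 with most counts in muscle in each role group and, from the other lists, pair partners, the 3 with most counts in muscle and the 2 with the largest called rise and fall; some genes that this rule names are not reported here.

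Counts were tested with edgeR 4.0.16 in R 4.3.3 (glmQLFit and glmQLFTest) on all genes, with TMM, filterByExpr (minimum count 10), a single term for group, and p-values adjusted by Benjamini-Hochberg (threshold 0.05). SE is the absolute log2 fold change over the square root of F. Slopes were fitted on log2 Myh4 CPM of all counts within muscle (Myh4 itself left out) and on the log2 mitochondrial genome share within mitochondria. Pair shares had an exact permutation test over 924 groupings (SciPy 1.17.1 and Python 3.11.15); the pair with Phka2, which matched no row, was left out. In simulated group data of 24679 genes, edgeR recovered 68% of genes changed by 1 and 97% of those changed by 2 on the log2 scale. Only 100 genes were changed by each amount, up and down alike, at a dispersion of 0.04. Most genes differed between the groups in the real data, so these rates do not give the power for this set. Animals pair the groups, since same-numbered libraries carry 1 animal number; deviations from group means correlated between -0.00747 and 0.0201 within animals. Intervals and floors cover counting error only.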

Additional observations from a re-analysis of the deposited data

Results flagged for a closer look

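Within groups of 6 libraries, 82 sets of values were examined for a single library far from the others, and 3 were flagged. Chance flags about 1 in 20 such groups. Pgam1 had 51.2 nuclear CPM in muscle replicate 3, against 28.9 to 36.2 in the other muscle libraries. Pfkfb1 had 13.8 nuclear CPM in mitochondria replicate 4, against 22.0 to 26.1 in the others. The share of Aldoa in the counts of Aldoa plus Aldoc was 55.1% in muscle replicate 3, against 76.3% to 86.6% in the other muscle libraries. Muscle replicate 3 also had the least Myh4.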

How the results depend on the processing

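The 26 lower and 4 higher calls were each within 1 call under RLE size factors, nuclear counts with TMM, DESeq2, no filter and the animal as a replicate block, which gave 26 lower and 4 higher. Leaving out single libraries gave 25 to 26 lower (25 without any 1 muscle library, where an Aldoa row failed the filter) and 3 to 4 higher, and 20 to 21 higher and 22 to 23 lower among the other pathway genes. The other pathway genes called lower were 9 in number when scaled to the mitochondrial genome and 14 when scaled to total counts, against 22. Pfkfb3 turned to 0.50 with total counts. When scaled to the mitochondrial genome, Pfkfb3 turned to 0.83 and Fbp2 to 0.40, and neither passed (edgeR adjusted p = 0.108 and 0.484). The cause was not tested. Genes rising with Myh4 numbered 13 in DESeq2 and 0 to 5 when single muscle libraries were left out, against 2. All 11 pairs passed when any single library was left out and in the paired exact sign-flip permutation test, where p = 0.03125 is the smallest it can give. With 1 Aldoa row in place of both, the Aldoa difference was -64.8 points, which follows from the choice of row. The set's share of all counts, in place of nuclear counts, was 0.117% in mitochondria and 1.79% in muscle. Leaving out single libraries moved its share of nuclear counts between 0.172% and 0.175% in mitochondria and between 2.46% and 2.74% in muscle. The animal block changed no call among the 30 rows. Depth limits genes with few mitochondria counts, such as Pgam2 and both Aldoa rows.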
